A study of Mus musculus with 12 samples.

Results

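Endothelial nuclei that had been carried along in hepatocyte preparations were compared before and after 24 hours of culture. A member was a nucleus of the Cell Suspension samples (CS, taken directly after perfusion and isolation) that the authors annotated as endothelial and placed in cluster 3, or a nucleus of the Primary Hepatocytes samples (PH, cultured for 24 hours on collagen) in cluster 12, which is annotated only as cultured cells. The rule selected 2801 nuclei, 1068 of CS and 1733 of PH, out of 33443 nuclei of these samples and 53467 in the whole series. The clusters were built from the same expression values, so membership is not independent of the levels described here.

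Single-nucleus RNA sequencing was done on 8 mice, each of which gave a liver sample (L), a CS sample and a PH sample, 24 samples in all. The mice were wild type males fed chow, aged between 10 and 12 weeks. The deposited labels give the strain as C57BL6J, whereas the study's methods name C57BL/6NTac. CS cells were untreated after collagenase perfusion and repeated low-speed centrifugation, a step that enriches for hepatocytes. PH cells were the same preparations after plating and overnight culture in medium with 1 µM dexamethasone (a glucocorticoid) and 1 nM insulin, lifted with trypsin. The endothelial cells in both groups are thus those left over in a hepatocyte preparation, and the PH cells are those that attached to the plate. Nuclei were marked with hashtag antibodies and mixed in 6 pools of 4 samples. CS and PH samples met in 4 of these pools. The CS side was a lone sample in pool 3 (mouse 1) and in pool 5 (mouse 4, 56 members). The PH side was a lone sample in pool 2 (mouse 4, 76 members). In pool 4 the PH samples held 42 and 12 members. L endothelial nuclei, 1982 of cluster 3, entered the fit to share its estimate of the spread, and so also entered the gene filter and the scaling. Their levels are given where they place a CS level.

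Liver sinusoidal endothelial cells line the hepatic capillaries. They carry fenestrae without a continuous basement membrane, clear macromolecules from blood through scavenger receptors, and send Wnt and BMP ligands to neighbouring hepatocytes. In the liver they are exposed to flow, to VEGF and to contact with hepatocytes and stellate cells, and their specialised gene program is known to fade when they are grown on plastic.

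Each CS sample held between 38 and 234 members and each PH sample between 12 and 510. The sums per sample ranged from 106187 to 631641 UMIs in CS and from 41532 to 975374 UMIs in PH, a UMI being a tag that counts each captured RNA molecule once. Mouse 7 of PH had the 12 nuclei and the lowest sum. No member barcode occurred in more than 1 pool. The share of all nuclei that were members was 7.70% ± 3.88 in CS and 9.05% ± 6.71 in PH (mean ± SD, n = 8 each). These shares did not differ beyond their spread (two-sided exact permutation test, p = 0.630), and within the 4 pools the PH minus CS difference went in both directions, from -6.42 to 9.76 percentage points. Low-speed centrifugation came before both sample types and attachment to the plate before PH, and their part in these shares was not tested. The median UMI count per member, taken within each sample, averaged 1745 ± 793 in CS and 1647 ± 865 in PH (two-sided exact permutation test, p = 0.816).

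In total, 75 PH nuclei from 7 samples were annotated as endothelial in cluster 3, and 26 CS nuclei from 6 samples lay in cluster 12. Neither set was counted as members. The PH set was uneven over the samples. With nuclei annotated as endothelial added to the members, mouse 7 of PH had 29 in place of 12. Mouse 4 of PH had 96 in place of 76. In mouse 7 the rule thus left out more of these nuclei than it kept. Itgb3 was at 515 CPM in the 26 CS nuclei and at 23.8 CPM in the 75 PH nuclei, beside 23.5 CPM in all CS members and 678 CPM in all PH members. Ptprb was at 496 and 2372 CPM, beside 3721 and 390 CPM, in the same order. The hashtag of the assigned sample took a median of 34.1% of the tag UMIs in the 75 nuclei and 39.6% in the 26, against 32.4% in PH members and 36.2% in CS members. Per sample, the median share ran from 18.9% to 52.5% in CS members and from 24.9% to 38.2% in PH members, with 4 samples in a pool. Whether these nuclei, or the members themselves, carry the right sample label was not tested. Including all annotated endothelial nuclei took in 76 PH nuclei, 75 of them those of cluster 3, and the 58 CS nuclei of clusters 24 and 26. It also took in L endothelial nuclei outside cluster 3, for instance 560 nuclei in place of 441 for mouse 3 of L. The L sums enter the filter and the scaling, and 18252 genes were tested. The counts below thus do not show the effect of the PH and CS nuclei alone. The 26 CS nuclei of cluster 12 do not carry that annotation and stayed out. In this setting 3663 genes were called in place of 3916, and 3195 genes were called both ways, 3193 of them in the same direction.

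Hepatocyte RNA was measured in the members, because free RNA of lysed hepatocytes enters every droplet. The summed level of 25 hepatocyte genes was between 3295 and 12139 CPM in CS members (median 5668) and between 3154 and 8651 CPM in PH members (median 5071). The groups overlapped, and their means did not differ beyond the spread (p = 0.415, two-sided exact permutation test). In the hepatocyte nuclei of the same samples the sum was between 27619 and 35826 CPM in CS but between 5290 and 10531 CPM in PH. The members thus held between 10.9% and 37.0% of the hepatocyte level in CS and between 49.2% and 134% in PH. In low-UMI barcodes of the same pools, those with 150 to 500 UMIs and no entry in the table of nuclei, the sum was between 15990 and 28227 CPM. Those barcodes held a mean of 244 to 388 UMIs, which amounts to between 8.09% and 27.4% of the UMIs of CS members and between 7.05% and 28.6% of those of PH members. Scaled by the hepatocyte genes instead, the share was between 15.8% and 48.5% in CS and between 19.7% and 34.6% in PH. The expected background of single genes below rests on the droplet estimate and would differ with the other.

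**Figure D1:**
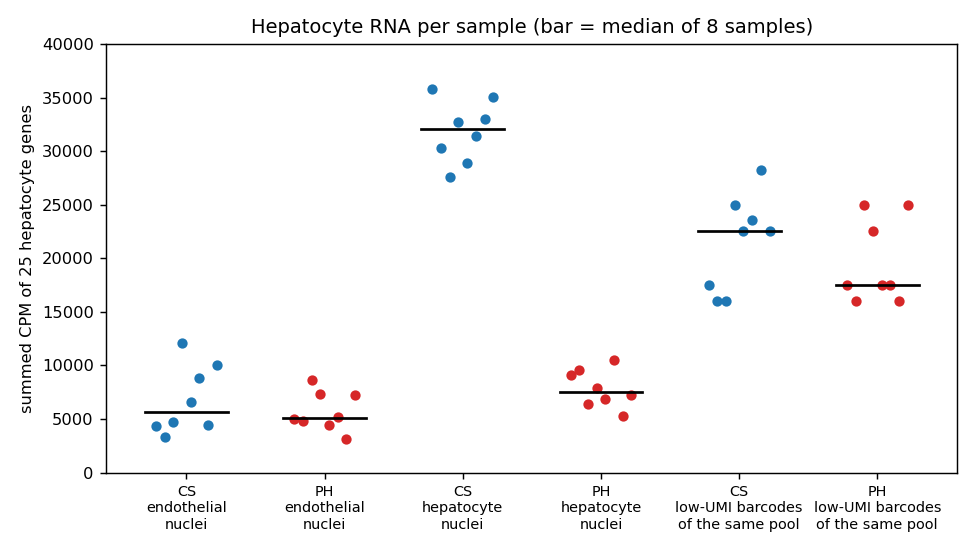
Summed CPM of 25 hepatocyte genes (y axis, linear) in endothelial nuclei, hepatocyte nuclei and low-UMI barcodes; each point is 1 of 8 CS (blue) or 8 PH (red) samples, with its pool's value for the barcodes, and bars are medians. CS and PH endothelial nuclei cover overlapping ranges, while hepatocyte nuclei are at 27619 CPM or more in CS and at 10531 CPM or less in PH.

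Markers of other liver cells were mostly low in the members. The 7 Kupffer cell genes summed to between 7.16 and 110 CPM in CS and between 0 and 45.3 CPM in PH, and the 7 leukocyte genes to at most 43.9 and 39.0 CPM. Among 10 stellate cell genes, Lrat, Ngfr and Des had no UMI in PH and Ngfr none in CS. The whole stellate list summed to between 168 and 792 CPM in CS and between 79.3 and 492 CPM in PH. Without Hgf and Reln, which other cells of the liver also express, the stellate sum was between 16.8 and 98.4 CPM in CS and between 0 and 79.1 CPM in PH. The biliary genes summed to between 8.64 and 84.2 CPM in CS and between 41.5 and 238 CPM in PH, with Krt7 at 0 in both, and Pkhd1, also detected in hepatocytes, held most of it. The 5 lymphatic endothelial genes summed to between 43.2 and 136 CPM in CS and between 45.3 and 221 CPM in PH. Ccl21a was at 0 in both groups. In the gene test of PH against CS that follows, Reln was called higher among 7 tested stellate and 4 tested lymphatic genes (log2 change 1.04, with its call lost under 14 alternatives), Lrat was called lower among the stellate genes and Cd79a among 4 leukocyte genes, and none of 6 Kupffer or 4 biliary genes was called. With the pool in the model the biliary gene Pkhd1 was called higher (log2 change 1.19, adjusted p = 0.00469).

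The endothelial label of the cultured nuclei was checked against 28 pan-endothelial genes, of which Sox18 alone had no UMI in PH. Their summed level was between 10616 and 18707 CPM in CS and between 4555 and 10273 CPM in PH. At the level of single nuclei, each nucleus of at least 1000 UMIs was thinned to 1000 UMIs, which left out 350 CS and 477 PH members. Arhgap31, a GTPase-activating protein for Rac and Cdc42, was then found in 62.2% ± 5.89 of CS nuclei and 67.2% ± 3.81 of PH nuclei (two-sided exact permutation test over samples, adjusted p = 0.0740). The share in hepatocyte nuclei of the same samples was 0.753% and 0.864%. Adgrf5, an adhesion receptor of endothelial cells, was found in 65.6% ± 6.22 of CS nuclei and 61.4% ± 3.68 of PH nuclei (adjusted p = 0.127), against 0.999% and 0.799% of hepatocyte nuclei. Over the nuclei of all samples together, members had a median of 1412 UMIs in CS and 1351 in PH before thinning, and hepatocyte nuclei 3644 and 6420.

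By the same measure Ptprb, the endothelial tyrosine phosphatase VE-PTP, fell, with 93.6% ± 3.26 of CS nuclei and 26.7% ± 7.42 of PH nuclei (adjusted p = 2.8e-04). Stab2, a scavenger receptor for hyaluronan, fell less far and was found in 91.5% ± 6.95 of CS nuclei and 53.9% ± 3.53 of PH nuclei (adjusted p = 2.8e-04). Itgb3, the integrin beta 3 subunit, showed the opposite pattern with 1.90% ± 0.836 of CS nuclei and 46.5% ± 6.25 of PH nuclei (adjusted p = 2.8e-04). Gata4, a transcription factor of the sinusoidal program, fell (47.2% ± 7.49 of CS nuclei and 7.06% ± 3.88 of PH nuclei, adjusted p = 2.8e-04), and its share in hepatocyte nuclei was 4.12% and 3.17%. Pkm rose (5.77% ± 4.39 of CS nuclei and 39.4% ± 5.45 of PH nuclei, adjusted p = 2.8e-04), but it was also found in 25.3% of PH hepatocyte nuclei. For Gclc (18.3% ± 11.8 of CS nuclei and 48.8% ± 11.5 of PH nuclei) and Lipc (9.93% ± 4.25 of CS nuclei and 19.1% ± 2.94 of PH nuclei) the share lay below that of hepatocyte nuclei in both groups (26% and 79.3% for Gclc, 30.2% and 66.5% for Lipc), so no expression in the members is read from these shares. Whether hepatocyte RNA accounts for them was not tested. The study itself picked these 9 genes on these samples, so they are not independent evidence of direction. It describes Arhgap31 and Adgrf5 as kept but markedly reduced in culture, a fall that these shares did not show beyond their spread. It also describes high Gclc, and expression of Lipc, in the cultured endothelial cells. Its comparison also took in Liver cells. Before thinning, the share of Lipc missed the threshold (adjusted p = 0.0683).

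**Figure D2:**
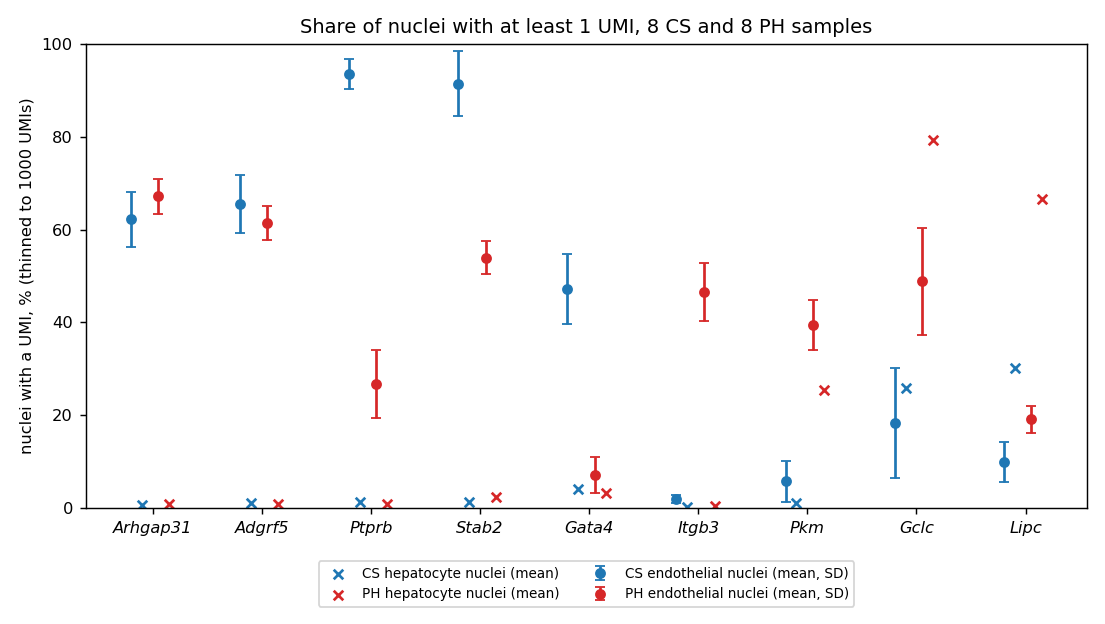
Share of nuclei with at least 1 UMI of each gene (y axis, percent, after thinning to 1000 UMIs); circles with bars are the mean and SD over 8 CS (blue) or 8 PH (red) samples of endothelial nuclei, crosses the mean in hepatocyte nuclei. Arhgap31 and Adgrf5 stand at like heights in both groups, Ptprb, Stab2 and Gata4 drop in PH, Itgb3 and Pkm are higher in PH, and for Gclc and Lipc the hepatocyte crosses lie above the endothelial circles.

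Across the genome, the UMI sums of 17555 genes were compared between PH and CS with edgeR's quasi-likelihood test. A gene was called at a Benjamini-Hochberg adjusted p under 0.05. Below, log2 changes are PH over CS with their standard error after ±, back-calculated from the log2 change and the test's F statistic. Levels are in CPM with the SD over 8 samples after ±. CPM is a gene's UMIs over the sample's member UMIs times its TMM scaling factor, scaled up to the usual CPM total. The hepatocyte gene sums above carry no such factor, nor do the levels of nuclei outside the members and those set beside them. Adjusted p comes from this test unless another is named. Of the 17555 genes 22.3% were called, 2283 higher in PH (13.0%) and 1633 lower (9.3%). These shares stand beside the count of each list below. The median log2 change of all genes was 0.22, and the values below stand beside that shift. It was 0.10 with RLE scaling, and the called genes were then 1873 higher and 1938 lower. With CS and PH samples alone the median was 0.04, with 1501 higher and 1869 lower. Without mouse 5 there were 1424 higher and 1627 lower, and without mouse 6 1453 and 1790. More genes were also lower than higher without mouse 1, 3, 4 or 8. Without mouse 2 (1861 higher and 1616 lower) or mouse 7 (1771 and 1527) more were higher. Whether more genes rose or fell thus varied with the scaling, the samples in the fit and the mouse left out. The CS and PH samples did not overlap for 812 of the called genes, 321 higher and 491 lower, and for 813 of all 17555 genes. Many genes named below were picked for large changes, some for lack of overlap, so a lack of overlap there is no added evidence. Within each of the 4 pools that held both groups, 2189 of the 3005 called genes with a group mean of at least 20 CPM moved in the direction of the fit. The fit rests on the same samples, so this count is not independent of it. With the background per droplet subtracted, 3139 of the 3916 genes were called again, each in the same direction. The background expected from low-UMI barcodes made up 50% or more of the UMIs in the higher group for 132 called genes, 123 of them higher in PH. Of the 9 genes the study picked, 4 were called higher and 3 lower. Among the 3916 called genes, 2343 were also called in the same direction in hepatocyte nuclei and 541 in the opposite one. The share called over all genes there is not given. These 2 counts and the hepatocyte counts of the lists below are therefore description only, and no shared response is read from them.

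**Figure D3:**
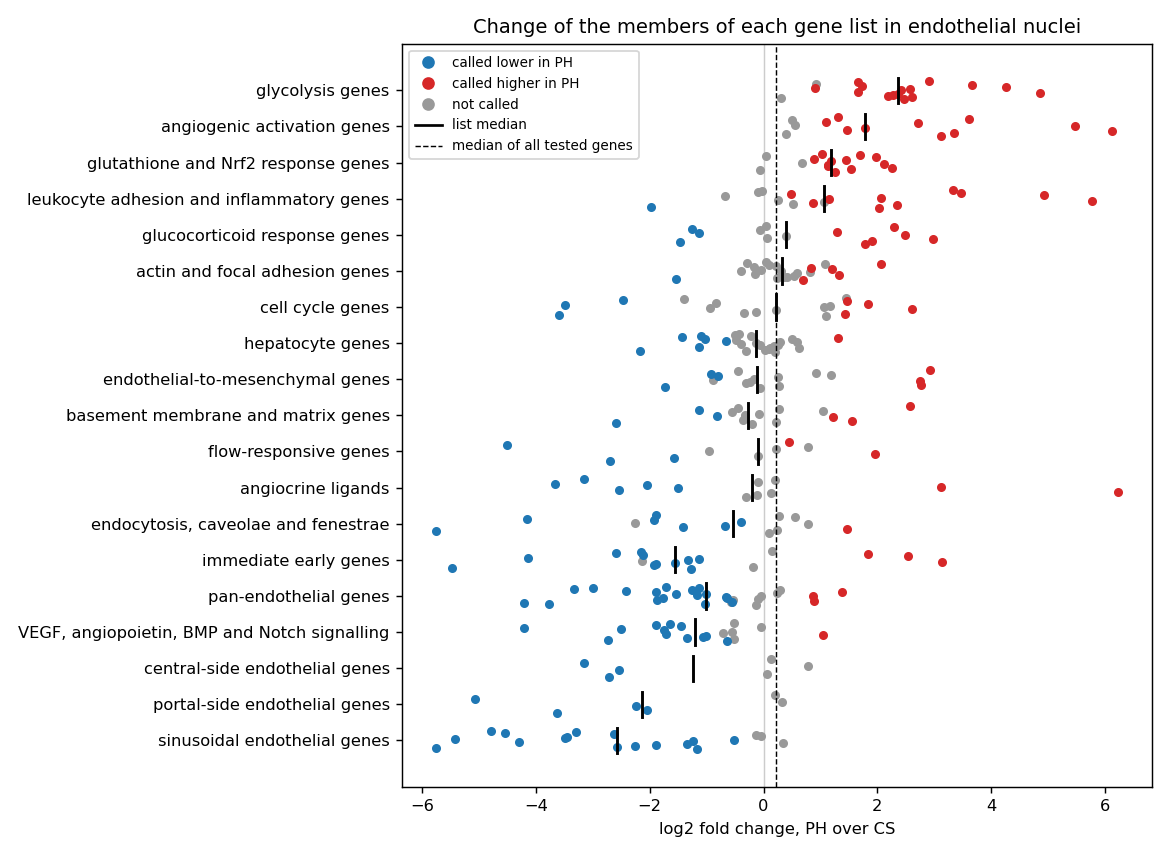
Log2 fold change, PH over CS (x axis), of each tested member of 19 gene lists (rows); red and blue points passed the edgeR threshold, grey ones did not, black ticks are list medians and the dashed line is the median of all tested genes (0.22). Sinusoidal genes lie mostly to the left, glycolysis genes to the right.

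Sinusoidal genes fell together. Of 19 listed genes of sinusoidal endothelium, 16 were called lower and none higher, and their median log2 change was -2.57, beside 0.22 over all genes. Ehd3, which recycles endocytosed membrane, was between 505 and 989 CPM in CS (median 712) and between 0 and 28.9 CPM in PH (median 10.6). The groups did not overlap (log2 change -5.75 ± 0.26, adjusted p = 4.3e-25). Clec4g, the lectin LSECtin, was between 58.5 and 194 CPM in CS (median 147) and between 0 and 5.79 CPM in PH (median 1.19). It was present in 8 UMIs over all PH members, of which 62.1% were expected from background (log2 change -5.43 ± 0.41, adjusted p = 1.3e-16). F8, which encodes coagulation factor VIII, was at 946 to 2297 CPM over the CS samples (median 1851), against 0 to 72.5 CPM over the PH samples (median 65.0) (log2 change -4.78 ± 0.22, adjusted p = 1.3e-24). Plxnc1, a semaphorin receptor, was at 602 to 1508 CPM over the CS samples (median 1106), against 14.5 to 81.4 CPM over the PH samples (median 40.5) (log2 change -4.54 ± 0.26, adjusted p = 4.2e-21). None of these 4 genes overlapped between the groups. L samples covered similar levels to CS, for instance between 625 and 898 CPM (median 668) for Ehd3 and between 1517 and 2678 CPM (median 2119) for F8.

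The fall was uneven among scavenger receptors. Stab2 was between 2515 and 5085 CPM in CS (median 4138) and between 587 and 1467 CPM in PH (median 1011), a 3.72-fold fall (log2 change -1.90 ± 0.18, adjusted p = 7.7e-13). Mrc1, the mannose receptor, fell by more (1400.1 ± 435 CPM in CS and 65.4 ± 21.2 CPM in PH; log2 change -4.30 ± 0.21, adjusted p = 2.8e-23), and was picked for this contrast after its values were seen. Gata4 was between 517 and 1136 CPM in CS (median 807) and between 31.7 and 145 CPM in PH (median 77.5), again without overlap (log2 change -3.29 ± 0.20, adjusted p = 4.6e-20). The most abundant sinusoidal gene not called was Cd36, a receptor for fatty acids and oxidised lipoprotein, with 284 ± 115 CPM in CS and 256 ± 97.0 CPM in PH (log2 change -0.14 ± 0.21, adjusted p = 0.691).

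Of the 28 pan-endothelial genes 18 were called lower and 3 higher, with a median log2 change of -1.02. Kdr, the main VEGF receptor of endothelial cells, was between 415 and 1027 CPM in CS (median 823) and between 15.9 and 76.2 CPM in PH (median 33.7). It fell 18.4-fold (log2 change -4.20 ± 0.24, adjusted p = 4.4e-21), and the drop was seen within each of the 4 pools, between -3.56 and -5.10 on the log2(CPM + 1) scale. Ptprb was between 2637 and 4566 CPM in CS (median 3581) and between 127 and 552 CPM in PH (median 326), a 10.1-fold fall (log2 change -3.33 ± 0.20, adjusted p = 1.4e-20). Mef2c, a transcription factor, was at 263 to 623 CPM over the CS samples (median 390.0), against 0 to 99.7 CPM over the PH samples (median 45.9) (log2 change -2.99 ± 0.22, adjusted p = 1.7e-16). Ramp2, a subunit of the adrenomedullin receptor, fell from 37.0 ± 17 CPM in CS to 12.5 ± 12.5 CPM in PH (log2 change -2.43 ± 0.42, adjusted p = 6.7e-06), with groups that overlapped. Arhgap31 and Adgrf5 had 1198 ± 271 CPM in CS and 1404 ± 467 CPM in PH, and 1189.9 ± 165 CPM in CS and 1070.3 ± 281 CPM in PH, respectively. Their intervals of the log2 change ran from -0.09 to 0.57 and from -0.44 to 0.17.

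The 3 pan-endothelial genes called higher, named here after their values were seen, were Pecam1, Cdh5 and Vwf. Pecam1, a junctional adhesion molecule, rose from 374 ± 86.3 CPM in CS to 689 ± 169 CPM in PH (log2 change 0.89 ± 0.16, adjusted p = 1.5e-05), and Cdh5, the adherens junction protein VE-cadherin, rose from 207 ± 58.5 CPM in CS to 373 ± 138 CPM in PH (log2 change 0.86 ± 0.18, adjusted p = 2.1e-04). Vwf, which is stored in endothelial granules, was at 8.81 ± 9.33 CPM in CS and 20.7 ± 14 CPM in PH (log2 change 1.37 ± 0.48, adjusted p = 0.0329). Its call was lost with RLE scaling (adjusted p = 0.0677) and in most of the alternatives tried. With all annotated endothelial nuclei included its sign turned (log2 change -0.81). The 58 CS endothelial nuclei of clusters 24 and 26 held 60 UMIs of Vwf, and the CS members 19.

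**Figure D4:**
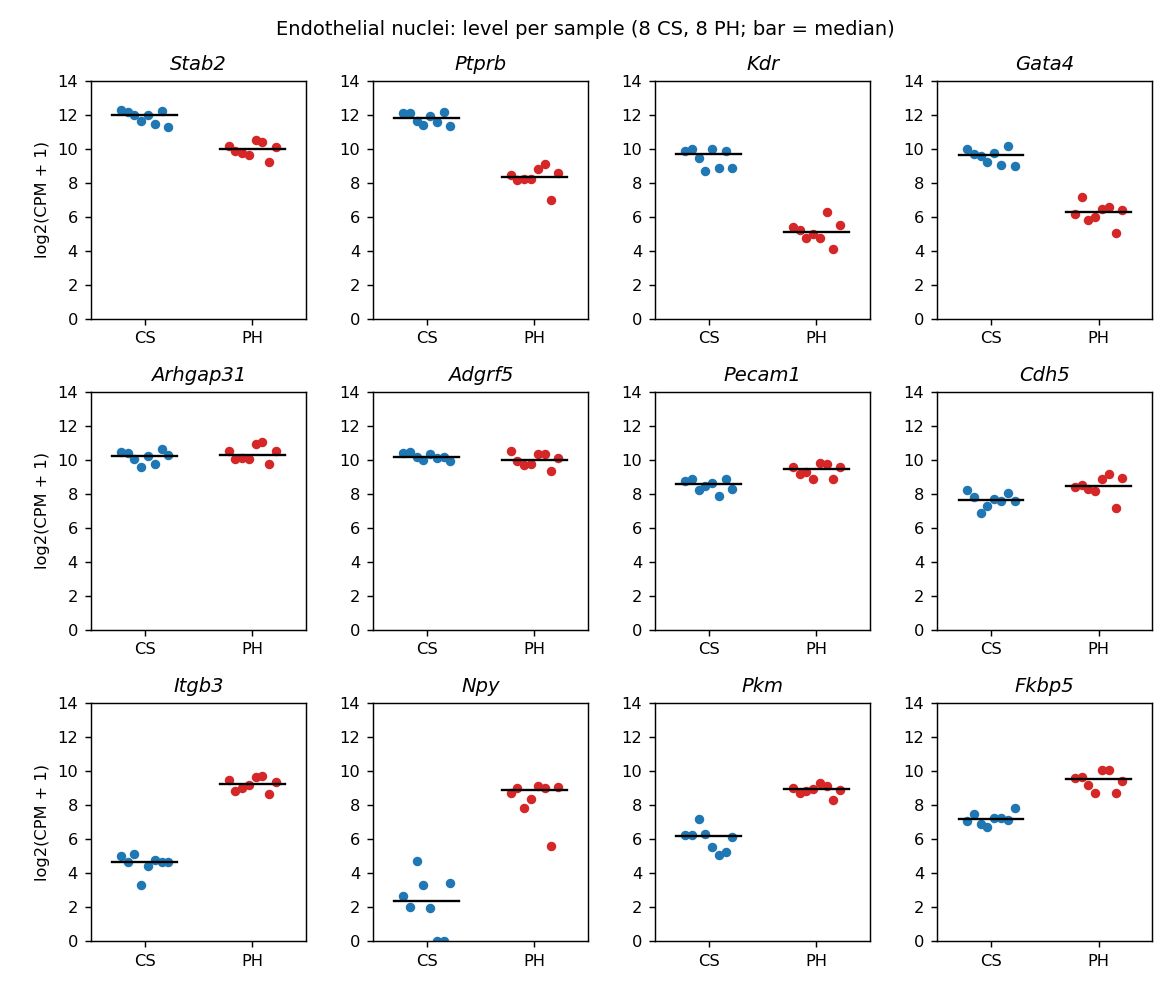
Level of 12 genes in endothelial nuclei, as log2(CPM + 1) (y axis), with 1 point per sample (8 CS in blue, 8 PH in red) and bars for medians. Stab2, Ptprb, Kdr and Gata4 are lower in every PH sample than in any CS sample, Itgb3, Npy, Pkm and Fkbp5 are higher, and Arhgap31 and Adgrf5 overlap.

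In the list of VEGF, angiopoietin, BMP and Notch components 12 of 18 tested genes were called lower and 1, Notch4, higher (median log2 change -1.20). Nrp1, a co-receptor for VEGF and semaphorins, was between 955 and 2144 CPM in CS (median 1387) and between 79.3 and 333 CPM in PH (median 232) (log2 change -2.73 ± 0.19, adjusted p = 8.4e-18). Smad6, an inhibitory SMAD that BMP signalling induces, fell from 475 ± 144 CPM in CS to 76.9 ± 41.0 CPM in PH (log2 change -2.50 ± 0.21, adjusted p = 2.3e-14), and Eng, a BMP co-receptor, fell from 783 ± 223 CPM in CS to 209 ± 72.5 CPM in PH (log2 change -1.88 ± 0.18, adjusted p = 1.5e-12). Flt1, another VEGF receptor, was the most abundant member not called, with 634 ± 131 CPM in CS and 604 ± 193 CPM in PH (log2 change -0.04 ± 0.16, adjusted p = 0.895). Notch4, named after its value was seen, was at 47.8 ± 20.1 CPM in CS and 87.8 ± 47.8 CPM in PH (log2 change 1.05 ± 0.25, adjusted p = 0.00120). Its call was lost on unspliced counts alone and with each sum thinned to the lowest total, where the log2 change was 0.47, and in pool 4 the log2 difference was -3.12.

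Among 12 tested angiocrine ligands 5 were called lower and 2 higher (median log2 change -0.21), beside 9.3% and 13.0% of all genes. The count of rises lies near that share. With the filter of filterByExpr 4 of 7 tested were called lower and none higher (median -1.55). The median was -0.50 without mouse 5, and -1.15, with 7 lower, over all annotated endothelial nuclei. Bmp2, a ligand that drives hepcidin in hepatocytes, was between 278 and 762 CPM in CS (median 498) and between 20.8 and 65.8 CPM in PH (median 34.0), without overlap (log2 change -3.66 ± 0.23, adjusted p = 2.9e-19). Wnt2, a Wnt of the central side, fell from 119 ± 37.8 CPM in CS to 20.8 ± 13.3 CPM in PH (log2 change -2.54 ± 0.28, adjusted p = 9.3e-11). Hgf, a growth factor for hepatocytes, was the most abundant ligand not called, with 257 ± 212 CPM in CS and 214 ± 95.2 CPM in PH (log2 change -0.09 ± 0.27, adjusted p = 0.857). The 2 that rose were Angpt2, an antagonist of the Tie2 receptor (from 6.35 ± 6.88 CPM in CS to 50.4 ± 24.7 CPM in PH; log2 change 3.13 ± 0.38, adjusted p = 1.9e-09), and Edn1, which encodes the vasoconstrictor endothelin 1. Edn1 was found in 1 UMI over all CS members and in 157 UMIs over all PH members, with 0.380 ± 1.08 CPM in CS and 46.3 ± 30.0 CPM in PH.

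Genes of the portal and of the central side of the lobule both held falls. Of 6 portal-side genes 4 were called lower, and of 6 central-side genes 3, with none higher in either list (median log2 changes -2.14 and -1.24). On the portal side, Msr1, a scavenger receptor, was between 190.1 and 502 CPM in CS (median 359) and between 0 and 20.8 CPM in PH (median 10.8) (log2 change -5.07 ± 0.29, adjusted p = 3.9e-21). Ltbp4, a binding protein of latent TGF-beta, fell from 96.4 ± 28 CPM in CS to 6.61 ± 5.21 CPM in PH (log2 change -3.64 ± 0.30, adjusted p = 9.0e-15), Efnb2, an ephrin ligand, from 128 ± 38.9 CPM in CS to 27.2 ± 12.2 CPM in PH (log2 change -2.05 ± 0.22, adjusted p = 2.4e-11), and Adgrg6 from 29.2 ± 26.5 CPM in CS to 4.82 ± 5.24 CPM in PH (log2 change -2.23 ± 0.52, adjusted p = 6.8e-04). Ntn4, with 339.7 ± 86.9 CPM in CS and 412 ± 183 CPM in PH, was not called (log2 change 0.33 ± 0.19, adjusted p = 0.241). On the central side Cdh13 was between 649 and 1426 CPM in CS (median 999) and between 15.9 and 280.1 CPM in PH (median 145) (log2 change -2.72 ± 0.21, adjusted p = 1.9e-16), while the receptor tyrosine kinase Kit had 416 ± 113 CPM in CS and 432 ± 110.5 CPM in PH (log2 change 0.06 ± 0.17, adjusted p = 0.843).

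Genes that respond to blood flow moved in both directions. Klf4 and Klf2, transcription factors induced by laminar shear, both fell, Klf4 from 109 ± 85.6 CPM in CS to 3.44 ± 3.65 CPM in PH (log2 change -4.51 ± 0.43, adjusted p = 1.2e-12) and Klf2 from 138 ± 84.2 CPM in CS to 16.6 ± 12.7 CPM in PH (log2 change -2.70 ± 0.29, adjusted p = 6.9e-11). Piezo1, a mechanically gated channel, fell from 95.2 ± 36.7 CPM in CS to 33.0 ± 11.0 CPM in PH (log2 change -1.57 ± 0.23, adjusted p = 1.3e-07). S1pr1, a receptor for sphingosine-1-phosphate, rose, at 8.64 to 118 CPM over the CS samples (median 50.3), against 159 to 279 CPM over the PH samples (median 220.0) (log2 change 1.95 ± 0.21, adjusted p = 3.0e-11). Heg1 also passed in the higher direction, by little (log2 change 0.44 ± 0.16, adjusted p = 0.0431), and lost its call under 18 of 25 alternatives. Over the 9 genes 3 were called lower and 2 higher, beside 9.3% and 13.0% of all genes. With the pool in the model, or with CS and PH samples alone, 1 was called higher. In L samples Klf4 was between 1.64 and 16 CPM (median 6.53) and Klf2 between 9.02 and 33.6 CPM (median 23.6), beside CS medians of 80.1 CPM and 119 CPM.

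In the list of endocytosis, caveolae and fenestrae 7 of 14 genes were called lower and 1 higher. Cavin2, a coat protein of caveolae, was between 84.2 and 170.4 CPM in CS (median 122) and between 0 and 14.1 CPM in PH (median 6.45), without overlap (log2 change -4.15 ± 0.29, adjusted p = 1.7e-17). Dab2, a clathrin adaptor, fell from 968 ± 322 CPM in CS to 256 ± 74.9 CPM in PH (log2 change -1.90 ± 0.18, adjusted p = 1.5e-12). Ctsl, a lysosomal protease, rose from 125 ± 50.7 CPM in CS to 340.1 ± 124 CPM in PH (log2 change 1.46 ± 0.22, adjusted p = 5.5e-07), but lost its call on unspliced counts alone. Lamp1, a lysosomal membrane protein, had 80.2 ± 16.2 CPM in CS and 93.6 ± 23.2 CPM in PH (log2 change 0.23 ± 0.19, adjusted p = 0.418).

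Of 13 tested genes of angiogenic activation 10 were called higher and none lower (median log2 change 1.78, the same with Apln, which had no UMI in CS, set at its lower bound). On unspliced counts alone 5 of 11 tested were called higher, and with all annotated endothelial nuclei 1 of 13 was called lower and 10 higher. In hepatocyte nuclei of the same samples 6 were called higher and 1 lower (median log2 change 1.83). Esm1, a proteoglycan of tip cells, was between 0 and 21.5 CPM in CS (median 6.65) and between 0 and 135 CPM in PH (median 106) (log2 change 3.62 ± 0.40, adjusted p = 1.1e-10). The urokinase receptor gene Plaur rose from 6.4 ± 4.98 CPM in CS to 67.0 ± 23.1 CPM in PH (log2 change 3.34 ± 0.35, adjusted p = 1.3e-11). Pgf, a ligand of Flt1, was found in 1 UMI over all CS members and in 135 UMIs over PH members, with 0.224 ± 0.633 CPM in CS and 47.7 ± 29.2 CPM in PH. Adamts1, a matrix protease, was the most abundant member not called (133 ± 90.9 CPM in CS and 173 ± 56.7 CPM in PH; log2 change 0.39 ± 0.23, adjusted p = 0.254). It was called higher on spliced counts alone and without mouse 1, and over the alternatives its log2 change ran from -0.72 to 0.77.

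Of 17 adhesion, chemokine and other inflammatory genes 10 were called higher and 1 lower (median log2 change 1.06). On unspliced counts alone 4 of 13 were higher (median 0.40), and in hepatocyte nuclei of the same samples 12 of the 17 were higher. Cxcl2, a neutrophil chemokine, was between 0 and 7.16 CPM in CS (median 0) and between 9.06 and 246 CPM in PH (median 92.7), with 5 UMIs over all CS members (log2 change 5.77 ± 0.50, adjusted p = 3.9e-14). Ccl2, which attracts monocytes, was at 0 to 25.3 CPM over the CS samples (median 0), against 0 to 206 CPM over the PH samples (median 101) (log2 change 4.93 ± 0.58, adjusted p = 6.6e-10). In pool 2 the log2 difference of Ccl2 was -1.28. Selp and Sele, the P- and E-selectins that capture rolling leukocytes, rose from 6.23 ± 13.4 CPM in CS to 46.4 ± 19.7 CPM in PH (log2 change 3.47 ± 0.50, adjusted p = 1.4e-07) and from 1.12 ± 3.16 CPM in CS to 22.9 ± 12.6 CPM in PH (log2 change 3.33 ± 0.58, adjusted p = 1.2e-05). Cxcl10, an interferon-induced chemokine, had 60.6 ± 60.1 CPM in CS and 82.3 ± 60.8 CPM in PH (log2 change 0.26 ± 0.35, adjusted p = 0.661). Icam1 and Vcam1 were not called either, with log2 changes of -0.68 and -0.03.

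The largest rises among called genes of at least 50 CPM that were above the hepatocyte level in every PH sample and did not overlap between groups are given next. Npy, which encodes neuropeptide Y (chromosome 6, 49822710 to 49829507, plus strand in GRCm38), was between 0 and 25.3 CPM in CS (median 4.21) and between 47.6 and 559 CPM in PH (median 471). It had 11 UMIs over all CS members and 1298 over PH members (log2 change 6.26 ± 0.36, adjusted p = 4.2e-21), with 2 CS samples at 0. Xylt1, a xylosyltransferase that starts proteoglycan chains (chromosome 7, 117380979 to 117673580, plus strand), was between 0 and 17.3 CPM in CS (median 7.45) and between 333 and 716 CPM in PH (median 497). The rise was 67.4-fold (log2 change 6.07 ± 0.33, adjusted p = 8.5e-22). Itgb3 (chromosome 11, 104608000 to 104670476, plus strand) was between 8.64 and 33.7 CPM in CS (median 24.4) and between 397 and 847 CPM in PH (median 612), a 25.5-fold rise (log2 change 4.67 ± 0.24, adjusted p = 4.7e-23), seen within each pool between 3.86 and 5.93 on the log2(CPM + 1) scale.

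Adm, the vasodilator peptide adrenomedullin, rose from 2.70 ± 3.92 CPM in CS to 88.1 ± 42.9 CPM in PH (log2 change 5.05 ± 0.43, adjusted p = 2.3e-14), the reverse of its receptor subunit Ramp2. Sox4, a transcription factor, rose from 6.28 ± 5.02 CPM in CS to 191 ± 90.6 CPM in PH (log2 change 4.72 ± 0.35, adjusted p = 7.3e-17), and Steap2, a metalloreductase, from 5.42 ± 6.31 CPM in CS to 144 ± 55.8 CPM in PH (log2 change 5.00 ± 0.36, adjusted p = 3.0e-17). Fap, a surface protease known from activated fibroblasts, was at 4.32 ± 5.31 CPM in CS and 129 ± 45.4 CPM in PH (log2 change 4.76 ± 0.37, adjusted p = 4.5e-16), with 8.41 ± 2.72 CPM in CS and 56.7 ± 14.6 CPM in PH in hepatocyte nuclei. Gpx3, a glutathione peroxidase, rose from 3.21 ± 3.37 CPM in CS to 68.1 ± 28.2 CPM in PH (log2 change 4.58 ± 0.42, adjusted p = 3.1e-13), and Ifit3, an interferon-induced gene, from 2.57 ± 4.36 CPM in CS to 94.2 ± 38.3 CPM in PH (log2 change 4.55 ± 0.41, adjusted p = 1.1e-13). Muc19 was at 2.23 ± 2.60 CPM in CS and 65.8 ± 25.0 CPM in PH and shares its strand and locus with Smgc. Gprc5b, with 3 UMIs over all CS members and 206 over PH members, and Slc16a3 complete the 12.

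The largest falls by the same rule included sinusoidal genes named above, Ehd3, Clec4g and Msr1, and Itga8. Prickle1, a planar polarity protein (chromosome 15, 93499114 to 93595891, minus strand), was between 853 and 2110.2 CPM in CS (median 1371) and between 15.9 and 53.7 CPM in PH (median 38.4). It fell 35.1-fold (log2 change -5.13 ± 0.22, adjusted p = 4.6e-26). Slc9a9, an endosomal sodium/proton exchanger, fell from 1444 ± 485 CPM in CS to 40.6 ± 11.0 CPM in PH (log2 change -5.17 ± 0.23, adjusted p = 1.7e-25), and Cd300lg, an endothelial receptor of the CD300 family, from 157 ± 53.0 CPM in CS to 3.38 ± 3.95 CPM in PH (log2 change -5.25 ± 0.33, adjusted p = 2.9e-19). Il1a, the cytokine interleukin 1 alpha, was between 32.4 and 244 CPM in CS (median 133) and between 0 and 3.56 CPM in PH (median 0), with 309 UMIs over CS members and 5 over PH members (log2 change -6.06 ± 0.42, adjusted p = 1.1e-17). Gm14023, an unnamed gene, fell from 137 ± 101 CPM in CS to 1.41 ± 2.02 CPM in PH (log2 change -6.12 ± 0.48, adjusted p = 8.7e-16). It lies on the opposite strand over Il1a on chromosome 2 (129297370 to 129307826 against 129299610 to 129309972), and the sources used here do not state whether counting used the strand. Plxdc1 (55.8 ± 19.9 CPM in CS and 0.593 ± 1.68 CPM in PH) and Slc26a10 (90.9 ± 31.3 CPM in CS and 2.78 ± 4.05 CPM in PH) also belonged to the 12, as did Fosb.

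Glycolysis genes rose together. Of 17 tested genes 15 were called higher and none lower, with a median log2 change of 2.37 beside 0.22 over all genes. The glucose transporter Slc2a1 was between 0 and 19.5 CPM in CS (median 7.80) and between 79.3 and 180.1 CPM in PH (median 123) (log2 change 3.67 ± 0.32, adjusted p = 5.1e-14). Hk2, the inducible hexokinase, was between 0 and 8.64 CPM in CS (median 2.42) and between 9.06 and 81.4 CPM in PH (median 50.1), with 6 UMIs over all CS members (log2 change 4.26 ± 0.46, adjusted p = 4.7e-11). Slc16a3, which exports lactate, was at 0 to 6.08 CPM over the CS samples (median 0), against 31.7 to 109 CPM over the PH samples (median 87.6), also with 6 UMIs over CS members (log2 change 4.86 ± 0.41, adjusted p = 1.4e-14). Pkm, pyruvate kinase, was between 32.4 and 143 CPM in CS (median 71.7) and between 317 and 631 CPM in PH (median 485), a 7.53-fold rise (log2 change 2.91 ± 0.20, adjusted p = 7.3e-18). None of these 4 genes overlapped between the groups in CPM. For Hk2 only the scaling of the sums kept them apart, as 8.64 CPM in CS and 9.06 CPM in PH each stand for a lone UMI. The monocarboxylate transporter Slc16a1 had 8.17 ± 8.35 CPM in CS and 15.1 ± 14.2 CPM in PH and was not called (log2 change 0.92 ± 0.50, adjusted p = 0.199). On unspliced counts alone 9 of 16 tested members were called, all higher.

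Promoters of the glycolysis list were searched because 15 of its genes rose, and 3 promoters that hold a match are shown. The letters ACGTG, 1 form of the core bound by hypoxia-inducible factors, were searched on both strands (CACGT on the other). Other forms were not searched, and the letters CACGTG match on both strands. The window was 300 bases, from 250 before to 50 after the start site. Sequence was RefSeq of GRCm38.p6, with the first entry per gene. The search was chosen after the rise was seen. It matched in 10 of 18 glycolysis promoters (55.6%), in 24.0% of the 12798 promoters of tested genes, and in 19.7% of all 27025 promoters. In other lists with rises it matched in 1 of 11 promoters of angiogenic activation genes and in 2 of 12 of glutathione and Nrf2 genes. The 18 promoters include that of 1 listed gene that no row of the count matrix matched and that of Slc16a1, which was not called and holds 3 matches. Pkm was among the glycolysis genes without a match. Capitals mark the matches, which may overlap, and the sequences read 5′ to 3′ on the strand of the gene. Slc16a3 lies at chr11:120948817-120949116 (plus strand), Hk2 at chr6:82774405-82774704 (minus strand) and Slc2a1 at chr4:119108495-119108794 (plus strand).
Slc16a3: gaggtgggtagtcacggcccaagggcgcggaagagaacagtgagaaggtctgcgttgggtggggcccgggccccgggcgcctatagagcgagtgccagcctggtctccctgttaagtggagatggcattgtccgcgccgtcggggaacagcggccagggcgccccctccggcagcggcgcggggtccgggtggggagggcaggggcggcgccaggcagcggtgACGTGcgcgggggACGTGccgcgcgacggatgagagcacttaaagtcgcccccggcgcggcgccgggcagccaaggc
Hk2: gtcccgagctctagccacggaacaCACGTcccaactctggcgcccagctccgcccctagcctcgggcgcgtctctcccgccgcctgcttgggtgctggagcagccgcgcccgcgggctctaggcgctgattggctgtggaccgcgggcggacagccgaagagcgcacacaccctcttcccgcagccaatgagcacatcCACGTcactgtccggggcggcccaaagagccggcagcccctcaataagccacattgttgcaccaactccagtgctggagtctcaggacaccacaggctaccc
Slc2a1: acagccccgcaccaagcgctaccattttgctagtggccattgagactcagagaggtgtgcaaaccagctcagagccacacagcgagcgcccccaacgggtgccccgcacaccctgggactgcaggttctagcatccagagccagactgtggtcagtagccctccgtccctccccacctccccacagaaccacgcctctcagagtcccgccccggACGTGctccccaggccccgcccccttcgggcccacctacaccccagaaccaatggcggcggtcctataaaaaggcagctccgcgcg
A match describes these letters in this window and does not show that a factor was bound. Whether hypoxia-inducible factors had a part in the rise was not tested.

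Of 15 genes of glutathione synthesis and the Nrf2 response 12 were called higher and none lower (median log2 change 1.19). With the hepatocyte-restricted genes left out 3 of 6 tested were called, and with sums thinned to the lowest total 5 of 13, all higher. Hepatocyte nuclei of the same samples showed 14 of the 15 higher. Gclc, which encodes the catalytic subunit of the enzyme that starts glutathione synthesis, was between 51.8 and 539 CPM in CS (median 221) and between 519 and 1373 CPM in PH (median 1068) (log2 change 2.12 ± 0.27, adjusted p = 6.1e-09). The background expected from low-UMI barcodes equalled 79.2% of its UMIs in CS and 49.3% in PH. The log2 change was 3.37 with background subtracted per droplet and 6.89 with the subtraction scaled by hepatocyte genes. Srxn1, sulfiredoxin (10.4 ± 7.74 CPM in CS and 42.9 ± 18.7 CPM in PH; log2 change 2.26 ± 0.38, adjusted p = 3.2e-06), had an expected background of 46.3% of its PH UMIs, and Hmox1, heme oxygenase 1 (16.6 ± 10.2 CPM in CS and 64.7 ± 37.3 CPM in PH; log2 change 1.97 ± 0.35, adjusted p = 8.6e-06), one of 46.1%. Taldo1, of the pentose phosphate pathway, rose from 12.2 ± 6.0 CPM in CS to 35.7 ± 27.1 CPM in PH (log2 change 1.69 ± 0.37, adjusted p = 3.8e-04) with an expected background of 18.8%. Its call was lost on unspliced counts alone and on thinned sums, and the difference was negative in 2 of 4 pools (log2 -0.50 and -0.29). The calls of Srxn1 and Hmox1 were also lost on thinned sums, and in pool 2 the log2 difference of Hmox1 was -0.50. With background subtracted per droplet 9 of the 15 were called, all higher. The part of hepatocyte RNA in the rise of the others was not tested.

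Lipc, hepatic lipase, rose from 127 ± 56.4 CPM in CS to 315 ± 109 CPM in PH (log2 change 1.3 ± 0.24, adjusted p = 2.6e-05), was at 519.8 ± 307 CPM in CS and 1229 ± 135 CPM in PH in hepatocyte nuclei, and had an expected background of 67.4% of its UMIs in CS and 56.0% in PH. Its log2 change was 0.16 on spliced counts alone, where the call was lost, and 3.39 with background scaled by hepatocyte genes. Lipc was the 1 hepatocyte gene of 25 called higher, while 6 were called lower (median log2 change -0.13). With background subtracted per droplet 11 were lower (median -1.31), and on unspliced counts alone 13 of 24 (median -1.07). The largest fall in that list was Pck1, a gluconeogenic enzyme (510.4 ± 264 CPM in CS and 116 ± 73.5 CPM in PH; log2 change -2.16 ± 0.30, adjusted p = 5.4e-08), which went from 3840 to 24.9 CPM in hepatocyte nuclei. Alb, the most abundant member not called, had 1096 ± 484 CPM in CS and 1288 ± 436 CPM in PH (log2 change 0.25 ± 0.23, adjusted p = 0.477), and its sign turned with unspliced counts alone (log2 change -0.83). With the subtraction scaled by hepatocyte genes it was called higher (log2 change 7.86, adjusted p = 0.00694).

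Of 17 immediate early genes 11 were called lower in PH and 3 higher (median log2 change -1.56). On unspliced counts alone 4 of 11 tested were called lower and 1 higher, and without the hepatocyte-restricted genes 5 of 9 lower and 2 higher. In hepatocyte nuclei of the same samples 11 were called lower and 5 higher (median log2 change -2.03). Fosb was between 141 and 828 CPM in CS (median 373) and between 0 and 15.9 CPM in PH (median 8.09) (log2 change -5.47 ± 0.35, adjusted p = 5.8e-19). Fos was at 141 to 642 CPM over the CS samples (median 269.6), against 10.4 to 31.7 CPM over the PH samples (median 16.3) (log2 change -4.14 ± 0.29, adjusted p = 9.6e-18), and the nuclear receptor Nr4a1 fell from 43.3 ± 31.6 CPM in CS to 5.78 ± 4.62 CPM in PH (log2 change -2.60 ± 0.41, adjusted p = 9.2e-07). In L samples Fos was between 3.28 and 15.0 CPM (median 10.3) and Fosb between 0 and 7.23 CPM (median 3.93), and every CS sample stood above them. In PH the expected background was 87.0% of the Fos UMIs. Ier3 went against the list, from 15.5 ± 6.23 CPM in CS to 142 ± 48.8 CPM in PH (log2 change 3.14 ± 0.25, adjusted p = 8.2e-16), as did Fosl2 and Fosl1 (named after their values were seen; log2 changes 2.55 and 1.84, the latter with its call lost under 7 alternatives). Btg2 had 112 ± 66.8 CPM in CS and 96.6 ± 21.6 CPM in PH (log2 change -0.18 ± 0.27, adjusted p = 0.685), and with the pool in the model it was called lower (log2 change -0.69, adjusted p = 0.0155).

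Glucocorticoid response genes moved in both directions. Of 13 genes 6 were called higher and 3 lower (median log2 change 0.39, or 0.098 without mouse 4), beside 13.0% and 9.3% of all genes. On unspliced counts alone 2 of 9 were higher and 3 lower (median -0.22). Fkbp5, a co-chaperone of the glucocorticoid receptor, was between 104 and 229 CPM in CS (median 145) and between 413 and 1067 CPM in PH (median 731), without overlap (log2 change 2.30 ± 0.19, adjusted p = 7.2e-15). Zbtb16, a transcription factor, was between 48.9 and 409 CPM in CS (median 171) and between 952 and 2072 CPM in PH (median 1335), a 7.88-fold rise (log2 change 2.98 ± 0.29, adjusted p = 1.8e-12). Mt2, a metallothionein, rose from 39.5 ± 41.1 CPM in CS to 239 ± 138 CPM in PH (log2 change 2.49 ± 0.34, adjusted p = 3.8e-08), with an expected background of 34.3% in PH, and Ddit4 rose from 7.29 ± 6.26 CPM in CS to 31.6 ± 14.5 CPM in PH (log2 change 1.91 ± 0.40, adjusted p = 1.9e-04). The 3 that fell were Tsc22d3, Dusp1 and Sgk1, chosen here after their values were seen, with log2 changes of -1.26, -1.13 and -1.47. Errfi1 had 748 ± 377 CPM in CS and 756 ± 209 CPM in PH (log2 change 0.06 ± 0.21, adjusted p = 0.873), of which more than 50% was expected background in both groups.

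Integrin subunits form receptors for extracellular matrix. Among 21 tested genes 3 rose, Itgb3, Itga3 and Itga2, and 3 fell, Itga8, Itga1 and Itga9 (median log2 change 0.52), counts that lie near the shares of all genes, 13.0% higher and 9.3% lower. Itga3, a laminin-binding subunit, was between 0 and 16.1 CPM in CS (median 7.20) and between 47.6 and 277 CPM in PH (median 177) (log2 change 4.52 ± 0.30, adjusted p = 1.4e-18). Itga8 was between 102 and 556 CPM in CS (median 304) and between 0 and 15.9 CPM in PH (median 4.70) (log2 change -5.57 ± 0.41, adjusted p = 7.3e-17), and Itga1, a collagen-binding subunit, was between 415 and 1020.0 CPM in CS (median 774) and between 63.5 and 119 CPM in PH (median 96.1) (log2 change -2.88 ± 0.20, adjusted p = 1.1e-17). All 3 were free of overlap. Itgb1, the common partner subunit, had 275 ± 97.6 CPM in CS and 224 ± 68.1 CPM in PH (log2 change -0.23 ± 0.18, adjusted p = 0.396). With the pool in the model Itgb1 was called lower (log2 change -0.49, adjusted p = 0.0344), as it was on unspliced counts alone, and its difference was negative in all 4 pools. Itga2 and Itga9, named after their values were seen, had log2 changes of 1.68 and -2.0.

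Among 16 tested basement membrane and matrix genes 3 were called higher and 3 lower (median log2 change -0.27), near the 13.0% and 9.3% of all genes. Without mouse 6, or without mouse 8, 2 were higher and 6 lower. Lamc1, a laminin chain, rose from 73.3 ± 25.7 CPM in CS to 210.4 ± 85.1 CPM in PH (log2 change 1.55 ± 0.21, adjusted p = 2.0e-08), and Loxl2, a collagen cross-linking enzyme, rose from 8.55 ± 4.85 CPM in CS to 55.2 ± 22.3 CPM in PH (log2 change 2.58 ± 0.33, adjusted p = 5.6e-09). Fbn1, fibrillin 1, fell from 52.0 ± 27.1 CPM in CS to 10.3 ± 7.96 CPM in PH (log2 change -2.60 ± 0.38, adjusted p = 1.6e-07), as did the laminin chain Lama5 (24.6 ± 11.5 CPM in CS and 9.96 ± 7.10 CPM in PH; log2 change -1.14 ± 0.34, adjusted p = 0.0109, 0.0801 with the pool in the model). Lama4, at 547 ± 143 CPM in CS and 381 ± 177 CPM in PH, missed the threshold (log2 change -0.45 ± 0.19, adjusted p = 0.0753), and was called lower under 17 of the alternatives, among them the mouse as a block (adjusted p = 0.034). Of 16 endothelial-to-mesenchymal genes 3 were also called higher and 3 lower (median log2 change -0.12), again near the shares of all genes. Ccn2 rose from 10.5 ± 14.6 CPM in CS to 62.1 ± 38.6 CPM in PH (log2 change 2.77 ± 0.46, adjusted p = 3.3e-06) and the transcription factor Twist1 from 3.25 ± 3.93 CPM in CS to 25.9 ± 16.2 CPM in PH (log2 change 2.92 ± 0.49, adjusted p = 3.4e-06). The call of Twist1 was lost on unspliced counts alone, and in pool 4 its log2 difference was -0.52. Zeb2, another transcription factor, fell from 915 ± 297 CPM in CS to 275 ± 54.4 CPM in PH (log2 change -1.72 ± 0.18, adjusted p = 7.3e-12), and Fn1, fibronectin, had 258 ± 89.0 CPM in CS and 319.5 ± 138 CPM in PH (log2 change 0.27 ± 0.20, adjusted p = 0.380).

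Among 22 actin and focal adhesion genes 5 were called higher and 1 lower (median log2 change 0.33), beside 13.0% and 9.3% of all genes. Without mouse 2, 4, 5, 6 or 8 there were 3 higher, and on unspliced counts alone 1 was higher and 3 were lower (median -0.14). Tpm1, a tropomyosin, rose from 58.9 ± 23.2 CPM in CS to 246 ± 69.5 CPM in PH (log2 change 2.07 ± 0.20, adjusted p = 1.3e-12), and the lower one was Cnn2 (29.0 ± 15.1 CPM in CS and 8.09 ± 8.81 CPM in PH; log2 change -1.53 ± 0.39, adjusted p = 0.00194). Zyx rose from 26.3 ± 14.4 CPM in CS to 73.7 ± 16.6 CPM in PH (log2 change 1.33 ± 0.26, adjusted p = 5.0e-05) and Flna from 22.1 ± 11.7 CPM in CS to 47.3 ± 19.2 CPM in PH (log2 change 1.19 ± 0.28, adjusted p = 8.2e-04), but both lost their calls on unspliced counts.

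Of 17 cell cycle genes 4 were called higher and 3 lower (median log2 change 0.22, as over all genes), beside 13.0% and 9.3% of all genes. Without mouse 5 it was 2 in each direction. Cdkn1a, the cell cycle inhibitor p21, was between 6.11 and 42.1 CPM in CS (median 17.8) and between 54.4 and 172 CPM in PH (median 107) (log2 change 2.60 ± 0.27, adjusted p = 1.6e-11), without overlap. Ccnd1, cyclin D1, fell from 23.2 ± 12.8 CPM in CS to 4.74 ± 6.17 CPM in PH (log2 change -2.46 ± 0.47, adjusted p = 4.3e-05), with 12 UMIs over all PH members, and had a positive log2 change of 0.36 on unspliced counts alone (adjusted p = 0.898). Myc rose from 13.2 ± 10.6 CPM in CS to 45.9 ± 20.9 CPM in PH (log2 change 1.83 ± 0.41, adjusted p = 4.3e-04), and Mcm6 from 9.52 ± 10.3 CPM in CS to 24.2 ± 9.92 CPM in PH (log2 change 1.46 ± 0.40, adjusted p = 0.00419; 0.0874 without mouse 5). The call of Myc was lost on unspliced counts alone. Mki67, a proliferation marker, had 19.9 ± 25.0 CPM in CS and 15.6 ± 8.26 CPM in PH (log2 change 0.22 ± 0.50, adjusted p = 0.812), so its mean CPM and its fitted change differed in sign.

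Cytosolic ribosomal protein genes were called higher in 66 of 79 cases and lower in none (median log2 change 1.19). Rps2 was between 0 and 86.4 CPM in CS (median 40.1) and between 91.0 and 220.3 CPM in PH (median 127) (log2 change 1.81 ± 0.27, adjusted p = 3.6e-07), and Rps14 was at 13 to 96.6 CPM over the CS samples (median 53.2), against 99.7 to 229 CPM over the PH samples (median 197) (log2 change 1.66 ± 0.22, adjusted p = 9.6e-09). Rps19 and Rpl7 rose from 40.5 ± 22.3 CPM in CS to 150.2 ± 54.4 CPM in PH and from 19.3 ± 14.6 CPM in CS to 76.5 ± 25.0 CPM in PH, and Rpl4 had 44.2 ± 14.6 CPM in CS and 68.3 ± 22 CPM in PH (log2 change 0.59 ± 0.23, adjusted p = 0.0601). In hepatocyte nuclei 78 of the 79 were called higher. These short genes have processed copies elsewhere in the genome that can share reads. The spliced share of UMIs moved with this family. It was between 19.7% and 29.0% in CS members and between 25.8% and 33.6% in PH members, 6.80 points higher on average in PH (exact permutation over samples, two-sided p = 0.00109, or 0.00435 when adjusted over 4 sample measures). Within the 4 pools the difference was between 4.79 and 7.23 points. On unspliced counts alone 4 of 57 tested ribosomal genes were called, all higher (median 0.80), and Rps2 had a log2 change of -0.11. Over all genes in that setting 1078 of 14758 were called higher (median log2 change 0.02), so the count of ribosomal calls lies near that share.

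The change in endothelial nuclei was then set against that in hepatocyte nuclei of the same samples with a test of the difference itself, in which each sample was a block. Of 25636 genes 20.3% differed, 2572 in the direction of a more positive change in endothelial nuclei (10.0%) and 2623 in the other (10.2%). Both cell types share their samples, pools and free RNA. Of the 25 hepatocyte genes 24 differed in the direction of a more positive change in endothelial nuclei. Their median log2 change was -0.13 in endothelial nuclei and -2.78 in hepatocyte nuclei. The part of free hepatocyte RNA in the counts of this test was not tested.

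Several rises were larger in endothelial nuclei. Itgb3, Npy and Xylt1 are among the genes named for a large rise and a PH level above that of hepatocytes. Their differences are therefore not independent of that choice. Itgb3 was at 1.79 ± 0.820 CPM in CS and 3.04 ± 1.05 CPM in PH in hepatocyte nuclei, and its change was higher in endothelial nuclei by 3.77 on the log2 scale (difference 3.77 ± 0.35, adjusted p = 2.0e-25). For Npy the difference was 5.21 ± 0.51, adjusted p = 1.0e-22, and for Xylt1 6.61 ± 0.36, adjusted p = 4.0e-74. S1pr1 rose in endothelial nuclei and was at 8.68 ± 2.93 CPM in CS and 1.39 ± 0.527 CPM in PH in hepatocyte nuclei (difference 4.27 ± 0.28, adjusted p = 3.1e-50). Slc2a1 (19.7 ± 5.27 CPM in CS and 76.9 ± 8.94 CPM in PH in hepatocyte nuclei; difference 1.49 ± 0.37, adjusted p = 6.0e-04) and Zbtb16 (779 ± 598 CPM in CS and 1271 ± 276 CPM in PH; difference 1.90 ± 0.22, adjusted p = 6.7e-17) rose in both, more so in endothelial nuclei.

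Several differences were negative. Pkm went from 8.52 to 227 CPM in hepatocyte nuclei, a larger rise (difference -2.12 ± 0.27, adjusted p = 1.1e-13). Cdkn1a and Flna rose more in hepatocyte nuclei as well (differences -2.07 ± 0.37, adjusted p = 3.8e-07, and -3.81 ± 0.39, adjusted p = 1.2e-20), and so did Gclc (398 ± 179.8 CPM in CS and 2481 ± 707 CPM in PH; difference -0.71 ± 0.22, adjusted p = 0.00736). Klf4 fell in endothelial nuclei and was at 0.440 ± 0.300 CPM in CS and 1.62 ± 0.830 CPM in PH in hepatocyte nuclei (difference -6.63 ± 0.49, adjusted p = 1.7e-39), and Kdr, at 3.91 ± 1.39 CPM in CS and 1.6 ± 0.502 CPM in PH there, differed by -3.10 ± 0.30, adjusted p = 1.4e-23. For Fkbp5 (104 ± 57.0 CPM in CS and 259.7 ± 107 CPM in PH) and Fosb (244 ± 119 CPM in CS and 2.35 ± 0.868 CPM in PH) the difference missed the threshold (0.57 ± 0.23, adjusted p = 0.0567, and 0.88 ± 0.41, adjusted p = 0.120).

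**Figure D5:**
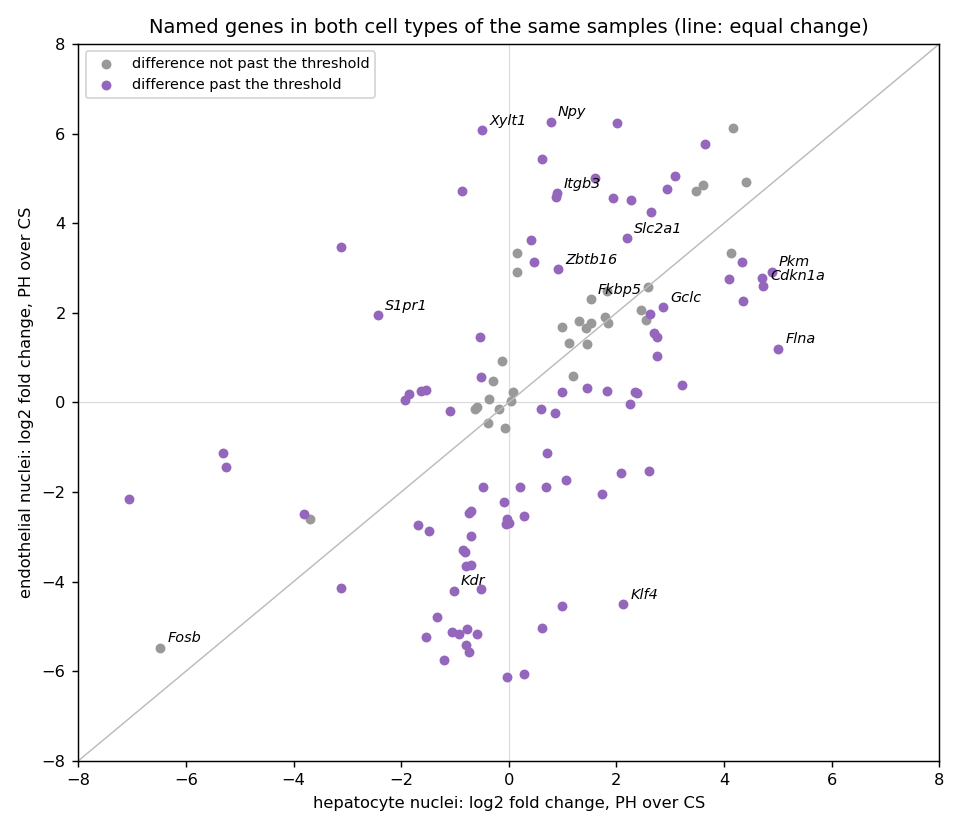
Log2 fold change, PH over CS, of the genes named by rule in hepatocyte nuclei (x axis) and endothelial nuclei (y axis) of the same samples; purple points differ between the cell types by the edgeR test, grey ones do not pass, and the line marks equal change. Itgb3, Npy and Xylt1 lie far above the line, Pkm, Cdkn1a and Flna below it, and Fosb near it.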

How the data were processed

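Nuclei of 24 samples (8 mice, 3 sample types) were hashtagged and sequenced in 6 droplet pools. The authors quantified reads by pseudo-alignment (Salmon Alevin, then Alevin-fry) against GRCm38 transcripts with and without introns, and deposited raw UMI counts per barcode, together with hashtag counts and a table of nuclei after demultiplexing with mclust, doublet removal with scDblFinder and clustering in Seurat. Whether counting used the strand is not given in the sources used here. From these counts, spliced, unspliced and ambiguous UMIs of the members were added per sample (at least 10 nuclei) and tested with edgeR 4.0.16 (R 4.3.3; TMM, genes of at least 10 counts, model of sample type, quasi-likelihood, Benjamini-Hochberg); DESeq2 1.42.0 was an alternative. Sample values were compared by two-sided exact permutation tests, whose smallest p is 1.55e-04. The barcode range for background, 150 to 500 UMIs, was set after seeing the data. Intervals are 95%. Scripts were tested on simulated data.

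The same mouse number marks the same animal, per the study. Deviations from the group means over 3819 genes correlated between samples of a mouse at -0.178 to 0.210, above 0.1 in 2 of 8 mice. Different mice in the same pool had a median correlation of 0.107.

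The members and gene lists were chosen with earlier results of these data known. Named genes were the study's 9 genes, in each list up to 4 called genes of at least 20 CPM with the largest changes and the most abundant gene not called, and the 12 largest rises and falls of at least 50 CPM without overlap and above the hepatocyte level. The rule's genes not described individually are Adgre1, Cyp2e1, Gss, Kank3, Prox1, Skap1 and Tat. Some genes that the rule names are not reported here.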

Additional observations from a re-analysis of the deposited data

Results flagged for a closer look

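Values are given without an explanation. Within groups of 8 samples, a sample was noted when its gap to its neighbour, divided by the group's range, exceeded Dixon's critical value at the 95% level. Of 276 groups of values printed here 34 held such a sample. Chance gives about 1 in 20, and values of a sample are not independent of each other.

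Mouse 1 of CS stood high for Klf2 (340.0 CPM), Klf4 (306 CPM), Adamts1 (341.8 CPM), Mt2 (132.4 CPM), Reln (69.8 CPM), Ier3 (28.6 CPM), Esm1 (21.5 CPM), Sele (8.95 CPM), Cxcl2 (7.16 CPM) and Pgf (1.79 CPM). Mouse 3 of CS stood high for Hgf (766.5 CPM), Pkm (143.2 CPM), Npy (25.3 CPM) and Ccl2 (25.3 CPM). Mouse 4 of CS stood apart for Nr4a1 (120.9 CPM) and Fosl1 (25.9 CPM), mouse 2 of CS for Ifit3 (12.2 CPM) and Edn1 (3.04 CPM), and mouse 6 of CS for Selp (38.9 CPM).

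Mouse 7 of PH, with 12 nuclei, had a median of 3590 UMIs per nucleus, above the other PH samples. It also stood apart for Alb (365 CPM), Pkhd1 (238 CPM), Fosl2 (31.7 CPM), Ddit4 (0 CPM) and F8 (0 CPM). Other PH samples that stood apart were mouse 2 for Slc16a1 (45.3 CPM) and Ccnd1 (18.1 CPM), mouse 3 for Icam1 (37.6 CPM) and Gm14023 (5.79 CPM), mouse 5 for Kit (689 CPM) and Plxdc1 (4.74 CPM), mouse 6 for Bmp2 (65.8 CPM), and mouse 8 for Rps2 (220.3 CPM) and Vcam1 (135.6 CPM).

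The PH against CS change differed between endothelial and hepatocyte nuclei, by edgeR's test of the difference, for 12 of the 14 genes set out in the report. Of all 25636 genes 20.3% differed. The 14 were picked for the report, some by a rule that uses the hepatocyte level, so their count is no result. On the log2 scale the endothelial minus hepatocyte difference was 6.61 for Xylt1, 5.21 for Npy, 4.27 for S1pr1, 3.77 for Itgb3, 1.90 for Zbtb16 and 1.49 for Slc2a1. It was negative for Klf4 (-6.63), Flna (-3.81), Kdr (-3.10), Pkm (-2.12), Cdkn1a (-2.07) and Gclc (-0.71).

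Nuclei outside the members also carried a signal. The 26 CS nuclei of cluster 12 held Itgb3 at 515 CPM, from 27 UMIs, and the 75 PH nuclei of cluster 3 held Ptprb at 2372 CPM. The hashtag calls behind these nuclei were not tested.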

How the results depend on the processing

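The count of 3916 genes became 1737 on spliced counts alone and 1428 with each sample's sum thinned to the lowest total of 41532 UMIs, both of which leave fewer UMIs; under the other alternatives it lay between 2770 and 3865 (3240 with background scaled by hepatocyte genes). Subtracting background per droplet (3502), nuclei of at least 1000 UMIs (3865) and samples of 50 or more nuclei (3487) were alternatives chosen after seeing the data. Leaving out 1 mouse gave 3051 to 3605 genes. With the mouse as a replicate block it was 3564, or 2889 with the CS and PH samples alone (chosen after seeing the data), and the count of genes that differed between cell types went from 5195 to 4797 (4622 to 5249 without 1 mouse). The block brought Lama4 past the threshold and took none of the other named genes' calls in the fit with L samples. Leaving out 1 mouse, the difference in the share of members ran from -0.133 (without mouse 6) to 3.28 percentage points and that in UMIs per nucleus from -245 to 122 (without mouse 3; -284.5 for nuclei of at least 1000 UMIs), and paired exact tests by mouse gave p = 0.641 and 0.766. The spliced share (5.89 to 7.21 points without 1 mouse) had a paired p of 0.00781, the smallest that pairing allows. The hepatocyte RNA difference had a paired p of 0.320. Lipc detection without thinning differed by 8.98 points and missed the threshold. On unspliced counts the log2 change turned for Alb (-0.83), Ccnd1 (0.36) and Rps2 (-0.11), and for Vwf it was -0.81 with all annotated endothelial nuclei and -0.039 after thinning; the causes were not tested. Calls were lost on unspliced counts alone for Ctsl, Flna, Fosl1, Heg1, Myc, Notch4, Rpl7, Taldo1, Twist1, Vwf and Zyx. On spliced counts alone they were lost for Adgrg6, Cyp2e1, Heg1, Lama5, Lamc1, Lipc, Mcm6, Ramp2, Reln and Zyx. Thinned sums lost those of Adgrg6, Angpt2, Ccn2, Ccnd1, Cnn2, Flna, Fosl1, Heg1, Hmox1, Mcm6, Notch4, Ramp2, Reln, Rpl7, Srxn1 and Taldo1. With the pool in the model those of Fosl1, Heg1, Lama5 and Reln were lost. Itgb1, Lama4, Btg2 and Pkhd1 gained a call with the pool in the model. Of 106 named genes called, 80 kept their call in each alternative that tested them, which for some genes left out filterByExpr, unspliced counts, thinned sums or the fit without hepatocyte-restricted genes. Mouse 7 of PH, with a TMM factor of 1.52, limits what a gene at 0 there can show.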
